A study of Mus musculus with 45 samples.

Results

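Skeletal muscle in cultured mouse forelimb buds was described by 44 genes, taken by symbol from the 34994 genes of the 9 deposited tables, and all 44 were present in them. The genes comprised 7 factors and 37 effectors, that is, genes of the contractile apparatus or of the energy, calcium and membrane functions that serve it. The factors were 4 of muscle progenitors and myoblasts (Pax3, Pax7, Myf5, Myod1) and 3 of differentiation and cell fusion (Myog, Myf6, Mymk). The effectors were 13 genes of the thick filament, 13 of the thin filament, 5 of the Z disc and cytoskeleton, and 6 of energy supply, calcium handling and the muscle membrane. Forelimb buds came from embryos of CD1 mice on gestation day 13 and were grown as organ cultures. The medium held DMSO, the vehicle (control), or bisphenol S (BPS) at 10 µM or 50 µM, and RNA was taken after 3, 24 or 48 h. Each of the 9 groups had 5 libraries of poly-A RNA, 45 in all. Limbs of both sexes were cultured together, and the strain field of the 50 µM, 48 h libraries reads CD2 to CD6 where the design text names CD1 throughout. Nothing in the labels says if the libraries of 1 group are separate cultures or litters; the spread that p-values rest on may therefore be technical.

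BPS is an industrial replacement for bisphenol A. Limb muscle arises from cells that leave the somites and enter the limb bud, where they are marked by the paired-box factors Pax3 and Pax7. Myf5 and Myod1 commit them to the myoblast fate, Myog (myogenin) starts terminal differentiation, Mymk (myomaker) lets myoblasts fuse into fibres, and Myf6 (MRF4) is a later member of the same family. Fibres then fill with sarcomeres, in which thick filaments of myosin slide along thin filaments of actin, troponin and tropomyosin anchored at Z discs. Developing limb muscle uses embryonic and perinatal myosins, and actin and troponin forms that later mark the heart, before adult forms take over.

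Promoters are shown for 4 example genes: Pax7, a progenitor factor, Myog, the differentiation factor, and Acta1 and Tnnt2, thin-filament genes with large changes over time. Each window runs from 250 bases before to 50 bases after the RefSeq start (GRCm38.p6), read 5′ to 3′ on the gene's strand; the first of the annotated Tnnt2 starts is used. Capitals mark CANNTG, the E-box class of sites that MyoD-family factors bind.
Pax7, chr4:139832919-139833218, minus strand: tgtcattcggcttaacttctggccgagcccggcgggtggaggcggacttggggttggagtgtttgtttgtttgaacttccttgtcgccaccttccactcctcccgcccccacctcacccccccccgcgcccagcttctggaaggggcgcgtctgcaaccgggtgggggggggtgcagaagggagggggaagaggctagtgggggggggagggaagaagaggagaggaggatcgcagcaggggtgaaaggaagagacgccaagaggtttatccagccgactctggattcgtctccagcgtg
Myog, chr1:134289754-134290053, plus strand: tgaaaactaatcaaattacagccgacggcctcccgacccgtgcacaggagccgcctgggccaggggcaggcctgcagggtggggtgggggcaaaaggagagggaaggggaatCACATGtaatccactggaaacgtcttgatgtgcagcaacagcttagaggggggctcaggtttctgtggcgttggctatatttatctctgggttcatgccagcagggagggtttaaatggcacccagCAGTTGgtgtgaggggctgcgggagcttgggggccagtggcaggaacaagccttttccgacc
Acta1, chr8:123894726-123895025, minus strand: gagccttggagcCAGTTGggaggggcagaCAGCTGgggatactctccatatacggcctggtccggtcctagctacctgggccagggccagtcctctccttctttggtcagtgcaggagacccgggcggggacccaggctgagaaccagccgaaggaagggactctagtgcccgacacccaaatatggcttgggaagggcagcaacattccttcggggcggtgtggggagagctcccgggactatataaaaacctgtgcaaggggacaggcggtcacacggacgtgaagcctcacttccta
Tnnt2, chr1:135836084-135836383, plus strand: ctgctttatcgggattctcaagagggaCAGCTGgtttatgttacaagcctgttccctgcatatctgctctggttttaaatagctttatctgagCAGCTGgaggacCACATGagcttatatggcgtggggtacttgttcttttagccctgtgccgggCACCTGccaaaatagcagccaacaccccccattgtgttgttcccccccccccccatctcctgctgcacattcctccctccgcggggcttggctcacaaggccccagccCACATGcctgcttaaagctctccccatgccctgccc
The Pax7 window held 0 CANNTG matches, the Myog and Acta1 windows 2 each and the Tnnt2 window 5, the largest count among the 46 promoters. The other Tnnt2 start had 2, and the effectors Ldb3, Ryr1, Myh1, Myh2 and Myl4 had 0. Only 2 promoters of progenitor and myoblast factors were matched, so the examples do not compare the roles. RefSeq promoters were matched for 36 of the 44 genes, 46 promoters in all. CANNTG occurred in 37 of these 46 (80.4%), against 72.3% of all 32851 promoters in the table. CAGCTG, one form of CANNTG, occurred in 18 (39.1%), against 16.3% of all promoters. Both motifs read the same on either strand, and a match describes letters, not a bound site.

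Libraries held between 15233143 and 23077457 assigned reads, with a median of 18225641. Levels are given in CPM, read counts scaled to a common library size with TMM factors over all 45 libraries, and 3 reads corresponded to 0.130 to 0.197 CPM. Some libraries stood apart across the effectors. Among the 32 effectors above 1 CPM, control 24 h replicate 3 was the lowest of its group in 30 and control 48 h replicate 3 in 26, while control 48 h replicate 1 was the highest in 20. Of the BPS libraries, 50 µM 3 h replicate 2 was the lowest in 25 and 10 µM 48 h replicate 4 in 22. Of the 6 defining skeletal muscle markers, Myod1, Myog, Acta1 and Mylpf were well detected, while Ckm (muscle creatine kinase) averaged 0.391 ± 0.0986 CPM in control limbs at 3 h and Tnnc2 (fast troponin C) 0.0417 ± 0.0641 CPM. Among cardiac markers, Nppa, Nppb, Nkx2-5 and Myl7 averaged under 0.5 CPM in control limbs at each time, with single libraries of Nppb reaching 0.845 CPM. The other cardiac markers, Myh6 and Tnni3, supplied most of a cardiac sum that averaged 8.99 ± 0.952 CPM at 3 h and 20.6 ± 1.02 CPM at 48 h. Values are given as mean ± SD with n = 5 libraries unless SE is named.

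The 44 genes spanned a wide range of levels. Per kilobase of gene length, the highest levels in control limbs at 48 h were those of the actins, Actc1 at 611 ± 93.2 and Acta1 at 521 ± 82.0 CPM per kb. The deposited length counts all annotated exonic bases and can exceed the length of the RNA made. Ranks between genes are therefore approximate. Mylpf, the fast regulatory myosin light chain, followed at 468 ± 99.7 CPM per kb. The ranges of Actc1 and Acta1 overlapped, with Acta1 the lower in all 5 libraries. Tnnc1 (238 ± 51.1), Tpm2 (202 ± 33.04), Myh3 (180.3 ± 25.3) and Myl1 (162 ± 28.5 CPM per kb) came next, with overlapping neighbours. Among the factors, Myog was highest at 133 ± 12.6 CPM per kb, level with troponin T1 (Tnnt1, 132 ± 22.9). Myod1 stood at 53.2 ± 5.01, Mymk at 42.5 ± 6.15, Myf5 at 5.39 ± 1.03, Pax7 at 2.43 ± 0.293, Myf6 at 1.52 ± 0.423 and Pax3 at 0.0965 ± 0.0298 CPM per kb. The number of genes averaging at least 100 CPM was 8 in control limbs at 3 h, 20 at 24 h and 21 at 48 h. Below 1 CPM at 48 h were Pax3, Myl2, Myl3 and Tnnc2.

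Between 3 and 24 h of control culture, most effectors rose by more than the spread between libraries, while the progenitor factors Pax3 and Pax7 were not called. Of the 39 genes that passed the filter on low counts, 32 were higher and 1 was lower at 24 h (edgeR's quasi-likelihood test, Benjamini-Hochberg adjusted p under 0.05 over 16536 genes), where 20% of all tested genes were higher and 20.1% lower. Their median log2 fold change was 1.11, against −0.01 for all genes. Effectors were higher in 27 of 32 tested, with a median of 1.22. Of the progenitor and myoblast factors 2 of 4 were called higher, with a median of 0.14, and all 3 differentiation and fusion factors were, with a median of 1.27. Of these, Myf6 passed the filter only through its 24 h libraries, so the filter favoured a rise. Ranges without overlap were found for 29 of the 39 genes, against 28.4% of all genes. In whole limbs, more muscle cells and more RNA per muscle cell cannot be told apart.

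From 24 to 48 h of control culture 22 of 34 effectors rose and no progenitor or myoblast factor was called. Of 41 genes tested, 24 were higher and 0 lower at 48 h, where 9.44% of all tested genes were higher and 6.55% lower. Among the 24, Lmod2 and Ckm passed the filter on low counts only through the 48 h libraries, so the filter favoured a rise. At an unadjusted p under 0.05, 1 gene, Pax7, was lower, and DESeq2 called 27 of the genes. The median log2 fold change was 0.54 over all 41, 0.61 over the effectors and −0.21 over the 4 progenitor and myoblast factors. The 41 genes held 13 with ranges that did not overlap, against 13.8% of all genes. The count of 24 depended on single libraries, at 28 without control 48 h replicate 3 and 19 without control 48 h replicate 1. Of the 39 genes tested in both steps, 21 were higher in both, 11 in the first step only, 1 (Mb) in the second only and 6 in neither. The genes called in the first step only included Myf5, Myod1, Myog, Actc1, Ttn, Neb and Ryr1, but whether the steps differ was not tested. The steps share the control 24 h libraries. Between 48 and 3 h, 35 of 41 genes were higher and 2 lower (all genes 24.5% and 24.8%), with a median of 1.65. The lower genes were Pax3 and Actn3. Of the higher genes, Myf6, Lmod2 and Ckm passed the filter there only through the 48 h libraries, so the filter favoured a rise.

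**Figure D1:**
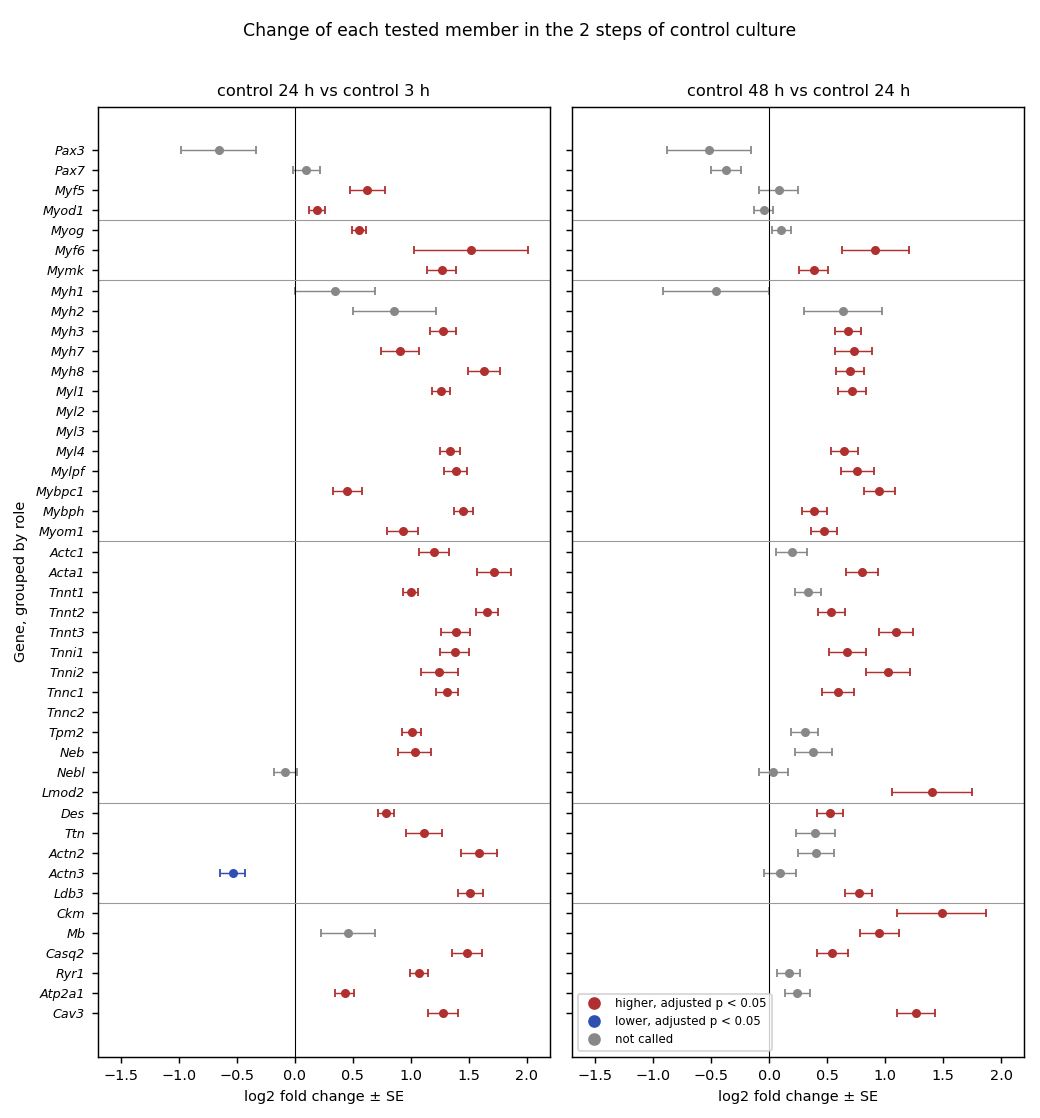
Log2 fold change with its SE (x axis) for each tested gene, by role (y axis), between 24 and 3 h (left) and between 48 and 24 h (right) of control culture, 5 libraries a group. Red points are higher, blue points lower and grey points not called at adjusted p under 0.05; the 4 uppermost genes, the progenitor and myoblast factors, lie nearer to 0 than most effectors.

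Pax7 and Pax3, the progenitor factors, had values that overlapped between successive times. Pax7 had 20.02, 14.7, 17.2, 17.7 and 15.9 CPM in control limbs at 3 h, 19.2, 18.5, 13.99, 16.4 and 23.8 CPM at 24 h and 11.6, 15.9, 15.3, 13.4 and 14.8 CPM at 48 h. The groups overlapped in both steps, with log2 fold changes of 0.10 ± 0.119 (SE, adjusted p = 0.538) from 3 to 24 h and −0.37 ± 0.129 (SE, adjusted p = 0.0608) from 24 to 48 h. Pax7 was called lower in the second step by DESeq2 (adjusted p = 0.0448), without the filter on low counts (0.0448) and with all 45 libraries in the fit (0.0106). Without control 24 h replicate 3 the second value became −0.46 (adjusted p = 0.0225). Pax3 averaged 1.35 ± 0.418 CPM at 3 h, 0.849 ± 0.397 CPM at 24 h and 0.597 ± 0.184 CPM at 48 h, and had the lowest level of the factors at 48 h. Its change was called between 48 and 3 h, at −1.16 ± 0.309 (SE, adjusted p = 0.00497), and not in either single step, except from 3 to 24 h without control 24 h replicate 3 (−0.90, adjusted p = 0.0443).

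The myoblast factors were called higher at 24 h and not called after it. Myf5 had 12.8, 9.70, 7.18, 9.08 and 14.1 CPM in control limbs at 24 h, against 6.71, 7.83, 6.11, 6.68 and 6.97 CPM at 3 h, a log2 fold change of 0.63 ± 0.154 (SE, adjusted p = 0.00285). Only replicate 3 at 24 h lay within the 3 h range. Myod1 had 111, 102, 85.0, 101 and 111 CPM at 24 h, against 88.6, 82.4, 86.3, 102 and 87.7 CPM at 3 h, a log2 fold change of 0.19 ± 0.0697 (SE, adjusted p = 0.0367). The Myod1 groups overlapped, and the call was lost when any of 8 of the 10 libraries was left out (replicates 1, 2, 3 and 5 at 3 h, and 1, 2, 4 and 5 at 24 h), with adjusted p between 0.0538 and 0.0977. In the second step, 24 to 48 h, the values were 0.08 ± 0.172 (SE, adjusted p = 0.807) for Myf5 and −0.05 ± 0.0820 (SE, adjusted p = 0.755) for Myod1. Neither was called.

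All 3 differentiation and fusion factors rose in the first step. Myog (chromosome 1, 134289989 to 134292548, mm10, plus strand) had 197, 203, 156, 177 and 186 CPM in control limbs at 24 h, against 126, 122, 131, 125 and 122 CPM at 3 h, with every 24 h library above every 3 h library. Its log2 fold change was 0.55 ± 0.0608 (SE, adjusted p = 2.59e-07). At 48 h it averaged 199 ± 18.9 CPM, and the second step was not called (0.11 ± 0.0809 SE, adjusted p = 0.426). Mymk, which drives fusion, had 48.5, 49.8, 37.4, 46.4 and 63.0 CPM at 24 h, against 16.8, 18.7, 21.5, 21.8 and 23.2 CPM at 3 h, a log2 fold change of 1.27 ± 0.122 (SE, adjusted p = 8.31e-07) with no overlap. At 48 h Mymk had 69.2, 71.0, 48.0, 66.2 and 66.7 CPM, overlapping 24 h, and the change of 0.38 ± 0.125 (SE, adjusted p = 0.0483) was lost on leaving out any of 8 libraries (all but replicate 5 at 24 h and replicate 3 at 48 h), with adjusted p between 0.0792 and 0.156. Myf6 rose from a level near the floor and passed the filter in the first step only through its 24 h libraries. It averaged 0.359 ± 0.301 CPM at 3 h, 1.02 ± 0.329 CPM at 24 h and 1.92 ± 0.534 CPM at 48 h, with 0 reads in replicate 1 at 3 h. Its second step (0.91 ± 0.288 SE, adjusted p = 0.0399) was lost on leaving out any of 7 libraries (replicates 1, 3 and 5 at 24 h and 1, 2, 4 and 5 at 48 h), with adjusted p between 0.0524 and 0.103. Myf6 lies 6.72 kb from Myf5 on chromosome 10, both on the minus strand.

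**Figure D2:**
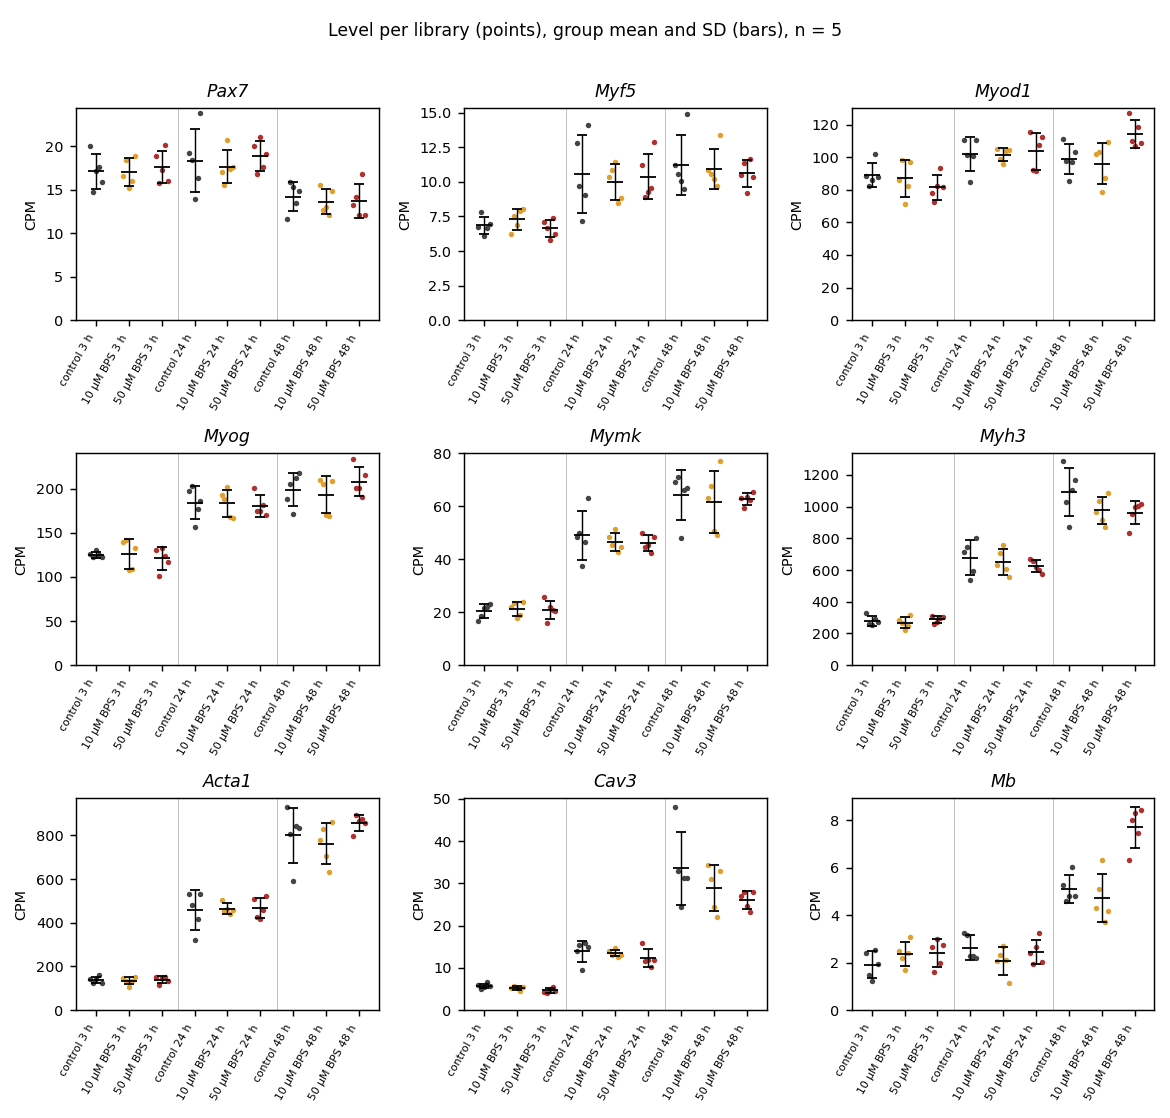
CPM (y axis, from 0) per library for 9 genes in the 9 groups (x axis, dose order within each time); points are libraries, bars the group mean and SD, n = 5. Pax7 stays between 11.6 and 23.8 CPM in all control libraries, while Acta1 averages 800.0 ± 126 CPM in control limbs at 48 h against 139 ± 14.1 CPM at 3 h, and Mb at 48 h is higher in 50 µM BPS than in control limbs.

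Thick-filament genes were called higher in 9 of 11 tested in each step. Myh3, the embryonic myosin heavy chain, had 326, 257, 254, 291 and 271 CPM at 3 h, 714, 745, 539, 594 and 802 CPM at 24 h and 1285, 1032, 874, 1103 and 1166 CPM at 48 h. Every library lay above every library of the time before, with log2 fold changes of 1.28 ± 0.112 (SE, adjusted p = 2.87e-06) and 0.68 ± 0.115 (SE, adjusted p = 0.000761). The perinatal myosin Myh8 changed by 1.63 ± 0.139 (SE, adjusted p = 6.84e-06) and 0.70 ± 0.120 (SE, adjusted p = 0.000981), and the slow myosin Myh7 by 0.91 ± 0.164 (SE, adjusted p = 0.000771) and 0.73 ± 0.161 (SE, adjusted p = 0.00711). The adult fast myosins Myh1 and Myh2 were low and variable and not called in either step. Between 48 and 3 h Myh2 was called higher, at 1.501 ± 0.347 (SE, adjusted p = 0.00174). Myh1 ranged from 1.85 to 8.48 CPM across control libraries at 48 h. Among the genes described here, Myh3, Myh2, Myh1 and Myh8 lie in this order on the plus strand of chromosome 11. Reads from such similar genes may be split between them.

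Light chains and myosin-binding proteins rose in both steps where they were tested. Myl1, an alkali light chain of fast muscle, had 212, 234, 165, 185 and 222 CPM at 24 h, against 91.0, 84.0, 83.3, 82.7 and 83.9 CPM at 3 h. That is a log2 fold change of 1.26 ± 0.0772 (SE, adjusted p = 5.3e-10) with no overlap. Its second step was 0.72 ± 0.121 (SE, adjusted p = 0.000838). Myl4, the embryonic light chain, averaged 63.5 ± 5.55 CPM at 3 h, 161 ± 21.3 CPM at 24 h and 253 ± 46.0 CPM at 48 h, and changed by 1.34 ± 0.0860 (SE, adjusted p = 2.57e-09) and 0.65 ± 0.119 (SE, adjusted p = 0.00156). Mybph (myosin-binding protein H) had 103, 116, 82.5, 93.8 and 112 CPM at 24 h, against 39.3, 33.1, 37.0, 41.0 and 34.9 CPM at 3 h. It changed by 1.45 ± 0.0855 (SE, adjusted p = 3.57e-10) in the first step and 0.39 ± 0.111 (SE, adjusted p = 0.0256) in the second. Mybpc1 (slow myosin-binding protein C) had 94.8, 91.5, 76.0, 96.99 and 109 CPM at 48 h, against 49.8, 51.7, 36.5, 39.8 and 63.5 CPM at 24 h, with no overlap. Its first step was 0.45 ± 0.127 (SE, adjusted p = 0.0127) and its second 0.95 ± 0.132 (SE, adjusted p = 0.000189), the smallest adjusted p of the thick-filament genes in that step. Mylpf changed by 1.39 and 0.76 and Myom1, an M-band protein, by 0.93 and 0.47, all called. The ventricular and slow light chains were near the floor, Myl3 at 0.329 ± 0.117 CPM in control limbs at 48 h and Myl2 at 2 to 15 reads in a whole group.

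Of the thin-filament genes, 10 of 11 tested were higher at 24 h than at 3 h and 7 of 12 higher at 48 h than at 24 h. Acta1 (chromosome 8, 123891769 to 123894751, minus strand), skeletal alpha-actin, had 143, 125, 142, 159 and 126 CPM at 3 h, 534, 482.4, 319, 419 and 533 CPM at 24 h and 929, 805, 591, 841 and 834 CPM at 48 h. Its log2 fold changes were 1.72 ± 0.147 (SE, adjusted p = 1.17e-05) and 0.80 ± 0.140 (SE, adjusted p = 0.00135), with separate ranges in both steps. Actc1, cardiac alpha-actin, rose in the first step only, at 1.20 ± 0.129 (SE, adjusted p = 3.71e-05) and then 0.19 ± 0.132 (SE, adjusted p = 0.367).

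Troponin genes differed in the size of the second step. Tnnt2, the cardiac and embryonic troponin T, had 131, 150.5, 104, 122 and 162 CPM at 24 h, against 40.7, 41.2, 43.1, 44.8 and 42.8 CPM at 3 h, a log2 fold change of 1.66 ± 0.0985 (SE, adjusted p = 5.68e-09). Tnnt1, slow troponin T, changed by 1.00 ± 0.0653 (SE, adjusted p = 2.04e-10) in the first step. Both had separate ranges. From 24 to 48 h Tnnt3, fast troponin T, gave the smallest adjusted p of the thin-filament genes, with 188, 152, 111, 167 and 158 CPM at 48 h against 78.1, 88.5, 52.7, 67.3 and 75.4 CPM at 24 h. Its log2 fold change was 1.09 ± 0.146 (SE, adjusted p = 0.000225), against 0.33 ± 0.112 (SE, adjusted p = 0.0585) for Tnnt1. Tnni2, fast troponin I, changed by 1.03 ± 0.189 (SE, adjusted p = 0.00232), Tnni1, slow troponin I, by 0.67 ± 0.161 (SE, adjusted p = 0.0137) and Tnnc1, slow and cardiac troponin C, by 0.59 ± 0.139 (SE, adjusted p = 0.0103). Tnni1 and Tnnt2 lie 25.4 kb apart on chromosome 1 and Tnni2 and Tnnt3 54.4 kb apart on chromosome 7, each pair on the plus strand.

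The remaining thin-filament genes were less uniform. Tpm2, beta-tropomyosin, and Neb, nebulin, the ruler of the thin filament, were called in the first step (1.01 and 1.03) and not in the second. Nebl, the nebulin relative of heart and non-muscle cells, averaged 15.8 ± 1.85 CPM at 3 h, 14.9 ± 1.06 CPM at 24 h and 15.4 ± 2.98 CPM at 48 h and was called in neither. Lmod2, a leiomodin that extends actin filaments, averaged 1.05 ± 0.213 CPM at 48 h and 0.387 ± 0.173 CPM at 24 h, and rose by 1.40 ± 0.348 (SE, adjusted p = 0.0107). It passed the filter in that step only through the 48 h libraries. Tnnc2 had 4 to 23 reads in a whole group and was not tested; 74.0% of its exonic bases overlap Ube2c on the other strand, and no label says that the libraries kept strand.

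At the Z disc, 4 of 5 genes were higher and 1 lower at 24 h. Ldb3 (ZASP/Cypher), a Z-disc scaffold, had 38.3, 37.4, 25.9, 34.3 and 40.1 CPM at 24 h, against 13.6, 11.3, 11.4, 13.7 and 11.6 CPM at 3 h, and changed by 1.51 ± 0.107 (SE, adjusted p = 6.74e-10). Its second step was 0.77 ± 0.119 (SE, adjusted p = 0.000349). Des, desmin, the muscle intermediate filament, averaged 79.5 ± 3.57 CPM at 3 h, 137 ± 16.5 CPM at 24 h and 197 ± 35.5 CPM at 48 h, and changed by 0.78 ± 0.0700 (SE, adjusted p = 2.16e-08) and 0.52 ± 0.113 (SE, adjusted p = 0.00495). Actn2, the alpha-actinin of all sarcomeres, changed by 1.58 ± 0.154 (SE, adjusted p = 3.33e-05) and then by 0.40 ± 0.156 (SE, adjusted p = 0.104), a second step that was called without control 48 h replicate 3 (0.50, adjusted p = 0.0194). Actn3, the alpha-actinin of fast fibres, ran the other way. It had 11.6, 11.3, 8.18, 10.4 and 11.5 CPM at 24 h, against 17.1, 13.2, 14.6, 15.8 and 16.0 CPM at 3 h, with every 24 h library below every 3 h library and a log2 fold change of −0.54 ± 0.108 (SE, adjusted p = 0.000450). Ttn, titin, was called in the first step (1.11) only.

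Calcium and membrane genes were higher at 24 h in 4 of 5 tested and at 48 h in 4 of 6. Ryr1, the calcium release channel, had 145, 151, 113, 123 and 157 CPM at 24 h, against 63.9, 68.6, 64.0, 69.1 and 63.1 CPM at 3 h, a log2 fold change of 1.07 ± 0.0770 (SE, adjusted p = 2.53e-09) with no overlap. Its second step was not called (0.17 ± 0.102 SE, adjusted p = 0.302). Cav3, muscle caveolin of the cell membrane, rose in both, at 1.28 ± 0.133 (SE, adjusted p = 1.17e-07) and 1.27 ± 0.166 (SE, adjusted p = 0.000106), with 48.0, 32.8, 24.5, 31.2 and 31.3 CPM at 48 h against 13.9, 15.4, 9.55, 15.8 and 14.9 CPM at 24 h. Casq2, calsequestrin of the calcium store, changed by 1.49 ± 0.130 (SE, adjusted p = 2.28e-06) and 0.54 ± 0.134 (SE, adjusted p = 0.0133); the second value was 0.52 (adjusted p = 0.0786) without control 48 h replicate 1. Mb, myoglobin, the oxygen store, was not called in the first step (0.46 ± 0.231 SE, adjusted p = 0.120) and rose in the second (0.95 ± 0.170 SE, adjusted p = 0.00105). Ckm rose by 1.49 ± 0.382 (SE, adjusted p = 0.0135) in the second step from 0.684 ± 0.291 CPM at 24 h. It passed the filter there only through the 48 h libraries. Atp2a1, the calcium pump of fast fibres, changed by 0.43 in the first step and was not called in the second. Without strand, reads from the 21.9% of its exonic bases that Rabep2 overlaps cannot be assigned to either gene with certainty. Such reads may be lost or misassigned, and likewise for Mybph and Adora1 (49.9%).

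**Figure D3:**
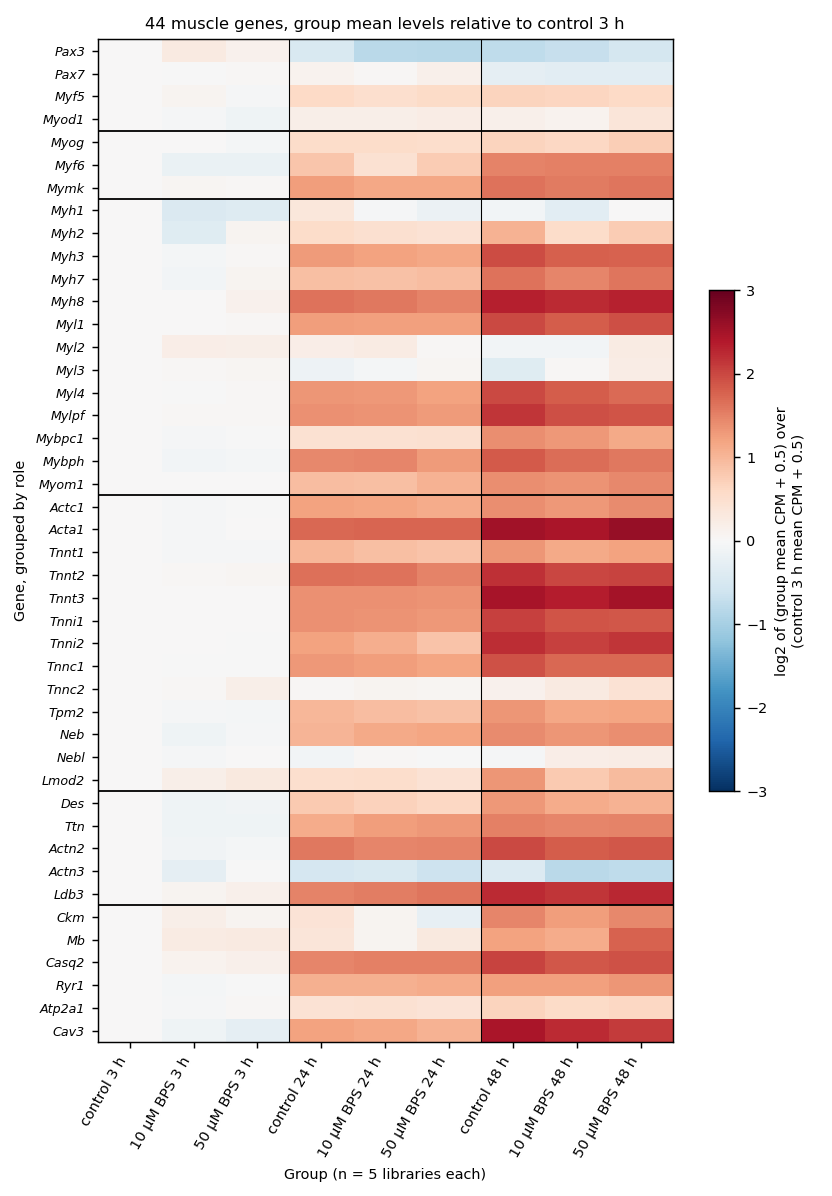
Group means of the 44 genes (rows, by role) in the 9 groups (columns), as log2 of mean CPM plus 0.5 over the control 3 h mean plus 0.5; red is above and blue below control at 3 h. Most effector rows darken at each time in all 3 dose columns, whereas Pax3, Pax7, Actn3 and Nebl do not.

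Progenitor factors and effectors were set against each other within libraries. The summed level of the 37 effectors was 2493, 2248, 2323, 2514 and 2278 CPM in control limbs at 3 h, 5886, 5971, 4286, 5055 and 6626 CPM at 24 h and 9239, 7810.3, 6192, 8261 and 8718 CPM at 48 h. The sum of the 4 progenitor and myoblast factors was 115 ± 7.86, 132 ± 16.4 and 125 ± 9.61 CPM at these times. Myod1 supplied most of this sum, with 89.4 ± 7.35 CPM at 3 h and 99.0 ± 9.33 CPM at 48 h, while Pax7 and Pax3 were a small part of it. The ratio of the effector sum to this sum averaged 20.7 ± 0.601 at 3 h, 42.2 ± 2.73 at 24 h and 64.1 ± 5.44 at 48 h, and the ranges of successive times did not overlap. Effector sums did overlap between 48 and 24 h, with control 48 h replicate 3 at 6192 CPM. Over the same hours the summed smooth muscle markers averaged 189 ± 10.4, 328 ± 39.6 and 317 ± 39.9 CPM, and the 6 cardiac markers, mostly Myh6 and Tnni3, 8.99 ± 0.952, 17.2 ± 2.35 and 20.6 ± 1.02 CPM; their part in the muscle values was not tested. The summed cell cycle genes averaged 1074 ± 81.9, 555 ± 24.5 and 585 ± 24.3 CPM. Cartilage markers also had higher averages at each later time, at 3896 ± 196, 9128 ± 244.5 and 14109.9 ± 2202 CPM. At 48 h they were lowest in replicate 3, at 10459 CPM, and highest in replicate 1, at 16339 CPM, as the effector sum was. Tendon markers averaged 142 ± 8.05, 199 ± 21.7 and 256 ± 18.9 CPM and macrophage markers 37.6 ± 2.76, 63.9 ± 9.67 and 93.8 ± 9.31 CPM. The part of these cells in the muscle values was not tested either.

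Ratios between related effectors, chosen after their values were seen and given as descriptions, differed between times for some pairs and overlapped for others. Acta1 over Actc1, in CPM per kb, was 0.391 ± 0.0164 in control limbs at 3 h, 0.561 ± 0.0473 at 24 h and 0.853 ± 0.0301 at 48 h, with no overlap between times. Reads of these near-identical actins may be misassigned. Tnnt3 over Tnnt1, the fast over the slow form, was 0.334 ± 0.0304, 0.435 ± 0.0367 and 0.743 ± 0.0134, again without overlap. Tnni2 over Tnni1, the other fast over slow pair, was 0.356 ± 0.0323, 0.324 ± 0.0517 and 0.416 ± 0.0347, with overlapping ranges. Mymk over Myog was 0.161 ± 0.0214, 0.263 ± 0.0405 and 0.319 ± 0.0341. Shares of myosin heavy chains were taken of the summed level per kb of Myh1, Myh2, Myh3, Myh4, Myh7, Myh8 and Myh13. Other heavy chain genes, such as Myh6, were left out. Of this sum Myh3 supplied 84.4 ± 0.696%, 83.7 ± 0.818% and 84.0 ± 0.798% at 3, 24 and 48 h, Myh8 9.57 ± 0.516%, 12.2 ± 0.278% and 12.3 ± 0.479%, and Myh7 3.60 ± 0.228%, 2.77 ± 0.454% and 2.87 ± 0.155%. The share of Myh1 was 1.72 ± 0.587%, 0.906 ± 0.337% and 0.413 ± 0.227%, with every 48 h library below every 3 h library. The size of these ratios and shares depends on the deposited gene lengths, such as 11772 bases for Myh8 and 6057 bases for Myh3.

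**Figure D4:**
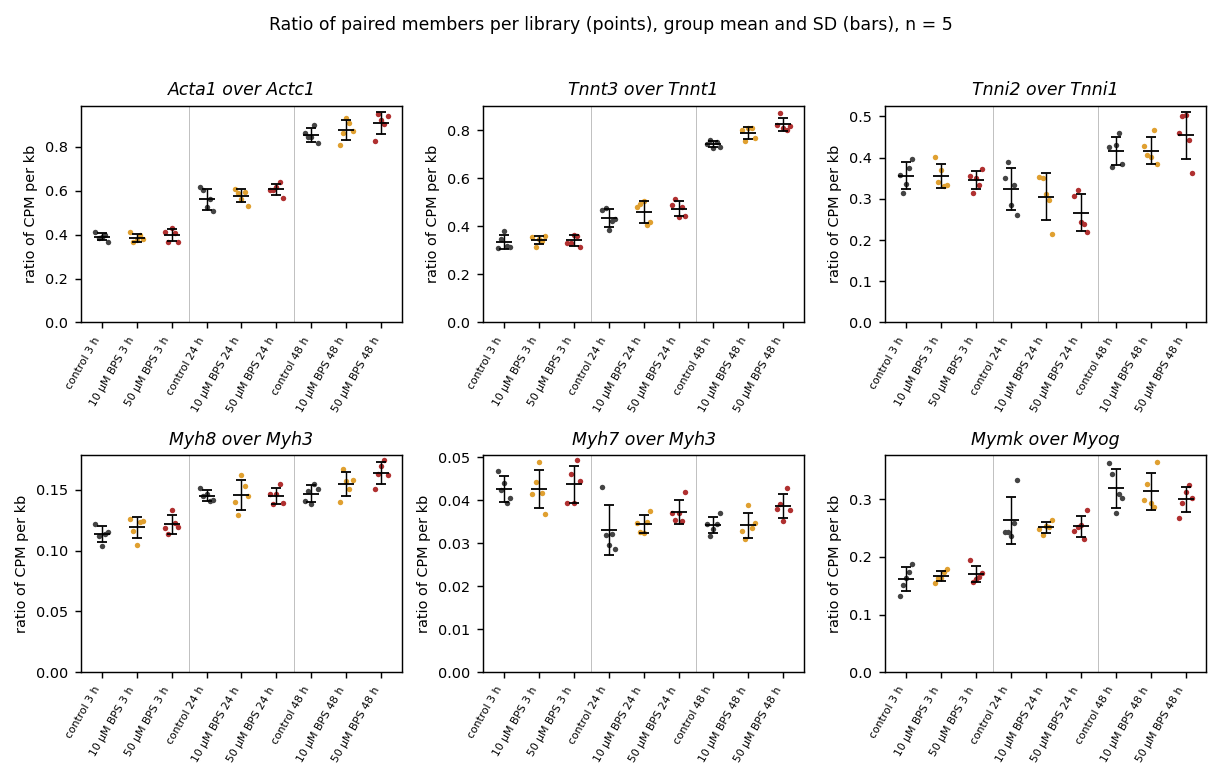
Ratio of the CPM per kb of paired genes (y axes, from 0) per library (points) in the 9 groups (x axes), with the group mean and SD (bars), n = 5. Acta1 over Actc1 and Tnnt3 over Tnnt1 separate the 3 times at every dose, and at 48 h Tnnt3 over Tnnt1 is 0.825 ± 0.0285 in 50 µM BPS and 0.743 ± 0.0134 in control limbs. The pairs were chosen after their values were seen. At 48 h Tnnt3 over Tnnt1 in 10 µM BPS overlaps control, as does Tnni2 over Tnni1 at both doses.

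Further genes of the pathway were counted from lists by known function. Of 52 further sarcomere and muscle effector genes, 46 were tested from 3 to 24 h and 37 were higher, 0 lower, with a median log2 fold change of 0.90 (all genes 20% higher and 20.1% lower). The smallest adjusted p-values were those of Mylk4, a myosin light chain kinase (1.42), Myom3, an M-band protein (1.17), Chrng, the fetal acetylcholine receptor subunit (1.15), and Cacna1s, the voltage sensor paired with Ryr1 (1.38). From 24 to 48 h, 24 of 45 were higher and 0 lower (median 0.49; all genes 9.44% higher and 6.55% lower), with Csrp3 (1.86), Xirp1 (1.07), Tcap (0.93) and Cacng1 (0.99) first. At an unadjusted p under 0.05, 0 were lower in either step. Of 30 upstream regulators and cofactors, 29 were tested. From 3 to 24 h, 13 were higher and 7 lower, the lower ones at a share near that of all genes, led by Id2, an inhibitor of MyoD-family factors (−0.74), Mef2c, a partner of them (1.09), Msx1, a repressor of myoblast differentiation (−1.08), and Mef2a (0.56). From 24 to 48 h, 2 were higher (Klf5 0.53, Fst 0.35) and 6 lower, among them Six2 (−0.40) and Msx1 (−0.68).

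Limbs kept in BPS were compared over the same steps. From 3 to 24 h, 32 of 40 tested genes were higher and 2 lower in 50 µM BPS (all genes 21.1% and 22.3%), and 32 of 39 higher and 1 lower in 10 µM BPS (21.4% and 21.5%). The lower genes were Actn3 and Pax3 in 50 µM BPS and Pax3 in 10 µM BPS. From 24 to 48 h, 32 of 42 were higher and 1 lower in 50 µM BPS (14.5% and 13.9%), and 24 of 41 higher and 1 lower in 10 µM BPS (13.5% and 10.6%). In both doses the lower gene was Pax7, which changed by −0.47 ± 0.0983 (SE, adjusted p = 0.000894) in 50 µM BPS and −0.38 ± 0.0974 (SE, adjusted p = 0.00652) in 10 µM BPS. Under 50 µM, Myf6 passed the filter on low counts in the first step only through the 24 h libraries. Ckm passed it in the second step only through the 48 h libraries. The filter thus favoured a rise, and genes with low counts in 10 µM BPS were open to the same limit. Whether a step differed between BPS and control limbs was tested as an interaction over all 45 libraries. By edgeR none of 18432 genes was called at either dose (0% higher and 0% lower), and DESeq2 called none of the 42 tested here. At an unadjusted p under 0.05, 1 of the 42 was lower for 50 µM in the first step and 3 were higher in the second, and for 10 µM 2 were lower in the first and 1 in the second. Of all genes, 3.37% were lower at that level for 50 µM in the first step and 1.68% higher in the second, and for 10 µM 1.17% and 1.09% were lower. The smallest unadjusted p was that of Mb at 50 µM, 48 against 24 h, at a difference of 0.69 ± 0.271 (SE) in log2 fold change (edgeR adjusted p = 1.00). It was followed there by Ckm (1.44) and Pax3 (1.05). For the first step at 50 µM the smallest p-values were those of Ckm (−1.59), Pax3 (−0.87) and Ttn (0.33). At 10 µM they were those of Mb (−0.65), Pax3 (−0.98) and Actn3 (0.35) in the first step, and Actn3 (−0.47), Pax3 (0.77) and Mybph (−0.19) in the second. None of these passed.

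Between BPS and control limbs of the same time, edgeR without a term for the replicate number called 1 of the 44 genes, Mb at 50 µM and 48 h. Mb (chromosome 15, 77015487 to 77050670, minus strand) had 6.33, 8.01, 8.29, 7.49 and 8.45 CPM in 50 µM BPS at 48 h, against 5.28, 4.62, 4.81, 6.04 and 4.80 CPM in control limbs. Every 50 µM library lay above every control library, and the log2 fold change was 0.60 ± 0.125 (SE, adjusted p = 0.0358). At this time and dose 0.48% of all tested genes were higher and 0.522% lower. In 10 µM BPS at 48 h Mb averaged 4.73 ± 1.02 CPM, with a range of 3.72 to 6.32 CPM that overlapped the control range. At 24 h it averaged 2.46 ± 0.514 CPM in 50 µM BPS and 2.63 ± 0.533 CPM in control limbs, and at 3 h 2.41 ± 0.583 CPM in 50 µM BPS and 1.92 ± 0.572 CPM in control limbs. The 48 h values rest on 705 reads in 50 µM BPS and 476 reads in control limbs. Gm49540, which overlaps 27.6% of the exonic bases of Mb, averaged 0.0869 CPM in 50 µM BPS and 0.0709 CPM in control limbs at 48 h. DESeq2 also called Mb (adjusted p = 0.00130). The call was lost with all 45 libraries in the fit (adjusted p = 0.0580) and on leaving out any of 7 of the 10 libraries (control replicates 2, 3 and 5, and 50 µM replicates 2 to 5), with adjusted p between 0.0538 and 0.106 and log2 fold changes between 0.56 and 0.61. It was also lost with the replicate number as a block in the edgeR fit (0.59, adjusted p = 0.106).

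Other effectors at 50 µM and 48 h did not pass. Myl3, the slow light chain, had 0.921, 0.659, 0.643, 0.655 and 0.827 CPM in 50 µM BPS, against 0.393, 0.471, 0.203, 0.366 and 0.213 CPM in control limbs, without overlap, at a log2 fold change of 1.14 ± 0.342 (SE, adjusted p = 0.142). Ranges without overlap were found for 2 of the 42 genes, Mb and Myl3, a share near the 3.68% of all genes that had them. Myl3 rests on 67 reads in 50 µM BPS and 31 reads in control limbs. It passed the filter on low counts only through the 50 µM libraries, so a high level there was a condition of its being tested. Mybph, with the third smallest p, averaged 111 ± 3.23 CPM in 50 µM BPS and 134 ± 20.4 CPM in control limbs, at −0.27 ± 0.0893 (SE, adjusted p = 0.201). Without control 48 h replicate 3, Mybph (−0.36, adjusted p = 0.00525), Myl4 (−0.37, adjusted p = 0.0215) and Mylpf (−0.37, adjusted p = 0.0302) were called lower and Mb was not called. At an unadjusted p under 0.05, 4 genes were higher and 7 lower, against 5.97% and 6.97% of all genes. The median over the 42 tested was −0.05, with 15 above and 27 below 0.

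No factor was called at 50 µM and 48 h. At 48 h Myod1 had 127, 109.7, 107, 119 and 109 CPM in 50 µM BPS, against 111, 97.7, 85.6, 97.4 and 103 CPM in control limbs, at 0.21 ± 0.0724 (SE, adjusted p = 0.226). Of the 50 µM libraries, 2 lay above the control range and the others in its upper part. Without control 48 h replicate 1 Myod1 was called higher (0.25, adjusted p = 0.0446). Pax3 differed by 0.36 ± 0.340 (SE, adjusted p = 0.708), Myf6 by 0.03 ± 0.233 (SE, adjusted p = 0.972), Pax7 by −0.06 ± 0.113 (SE, adjusted p = 0.880), Myf5 by −0.08 ± 0.123 (SE, adjusted p = 0.836), Myog by 0.06 ± 0.0723 (SE, adjusted p = 0.769) and Mymk by −0.03 ± 0.0893 (SE, adjusted p = 0.914). The ratio of the effector sum to the progenitor and myoblast factor sum was 47.1, 55.8, 58.9, 53.3 and 58.2 in 50 µM BPS at 48 h, against 68.7, 62.5, 55.5, 68.5 and 65.1 in control limbs. It averaged 54.7 ± 4.77 in 50 µM BPS and 64.1 ± 5.44 in control limbs. The ranges overlapped, with control replicate 3 inside the BPS range and 50 µM replicates 2, 3 and 5 inside the control range. This ratio was not tested. At 24 h it averaged 40.3 ± 2.68 in 50 µM BPS and 42.2 ± 2.73 in control limbs, and at 3 h 22.03 ± 1.40 in 50 µM BPS and 20.7 ± 0.601 in control limbs. In 10 µM BPS at 48 h it averaged 60.6 ± 2.85. Tnnt3 over Tnnt1 was 0.801 to 0.874 in 50 µM BPS, against 0.727 to 0.758 in control limbs at 48 h, a pair chosen after values were seen. The other such pair, Tnni2 over Tnni1, overlapped, at 0.362 to 0.503 in 50 µM BPS and 0.377 to 0.461 in control limbs. Summed macrophage markers averaged 67.1 ± 11.9 CPM in 50 µM BPS at 48 h and 93.8 ± 9.31 CPM in control limbs, and endothelial markers 166 ± 15.3 CPM in 50 µM BPS and 204 ± 25.8 CPM in control limbs; their part in these values was not tested.

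No gene of the 44 was called at 50 µM after 3 or 24 h, by DESeq2 or by edgeR without a term for the replicate number. Of all genes, 0.0299% were higher and 0.0239% lower at 3 h, and 0.248% and 0.127% at 24 h. At 3 h, 39 genes were tested and 0 were higher and 2 lower at an unadjusted p under 0.05, against 4.16% and 3.82% of all genes. The smallest p-values were those of Des (−0.11 ± 0.0486 SE, adjusted p = 0.591), Cav3 (−0.28 ± 0.134 SE, adjusted p = 0.625) and Myod1 (−0.13 ± 0.0648 SE, adjusted p = 0.654). At 24 h, 40 were tested, 0 higher and 1 lower at that level (all genes 7.09% and 5.32%), and Myh1 (−0.54 ± 0.243 SE, adjusted p = 0.383), Tnnt1 (−0.13 ± 0.0691 SE, adjusted p = 0.483) and Tnni2 (−0.35 ± 0.189 SE, adjusted p = 0.495) came first. Tnni2 averaged 15.1 ± 3.15 CPM in 50 µM BPS and 19.4 ± 5.02 CPM in control limbs. With the replicate number as a block in the edgeR fit, Tnni2 was called lower at 24 h (−0.33, adjusted p = 0.0314). Without control 24 h replicate 5, Neb (0.32, adjusted p = 0.0286) and Ttn (0.32, adjusted p = 0.0472) were called higher. The medians were 0.01 at 3 h and −0.07 at 24 h. Of the upstream regulators, Eya2, a transcriptional cofactor in muscle progenitors, was higher at 24 h (0.37 ± 0.0647 SE, adjusted p = 0.0177).

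At 10 µM BPS no gene was called at any time, among the 44 or among all genes (0% higher and 0% lower), by edgeR, and DESeq2 called none of the 44. At an unadjusted p under 0.05, 0 of the genes tested here were higher and 3 lower at 3 h, 0 and 0 at 24 h, and 0 and 2 at 48 h. All genes gave 0.997% and 0.979%, 1.83% and 1.16%, and 1.26% and 1.36% at these times. The smallest p-values at 48 h were those of Actn3, at 8.57 ± 1.34 CPM in 10 µM BPS and 11.4 ± 2.17 CPM in control limbs (−0.41 ± 0.143 SE, adjusted p = 1.00), Lmod2 (−0.88 ± 0.332 SE, adjusted p = 1.00) and Myh2 (−0.64 ± 0.362 SE, adjusted p = 1.00). At 3 h they were those of Actn3 (−0.29), Myh1 (−0.48) and Neb (−0.13), and at 24 h Myf6 (−0.55), Pax3 (−0.65) and Mb (−0.34). Lmod2 at 48 h rests on 98 reads in control limbs and 52 reads in 10 µM BPS. It passed the filter on low counts through the control libraries, so the filter favoured a fall. At 48 h 38 of 41 tested genes lay below 0, with a median of −0.15. That median was −0.24 without control replicate 3, −0.09 without control replicate 1 and −0.08 without 10 µM replicate 4. The effector sum was 7608, 8005, 6523, 6209.5 and 8366 CPM in 10 µM BPS, against 9239, 7810.3, 6192, 8261 and 8718 CPM in control limbs, with overlapping ranges. In 50 µM BPS at 48 h it was 7164, 7574, 7581, 7890.5 and 7679 CPM. The control libraries are shared by both doses, so the values of the doses are not independent.

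**Figure D5:**
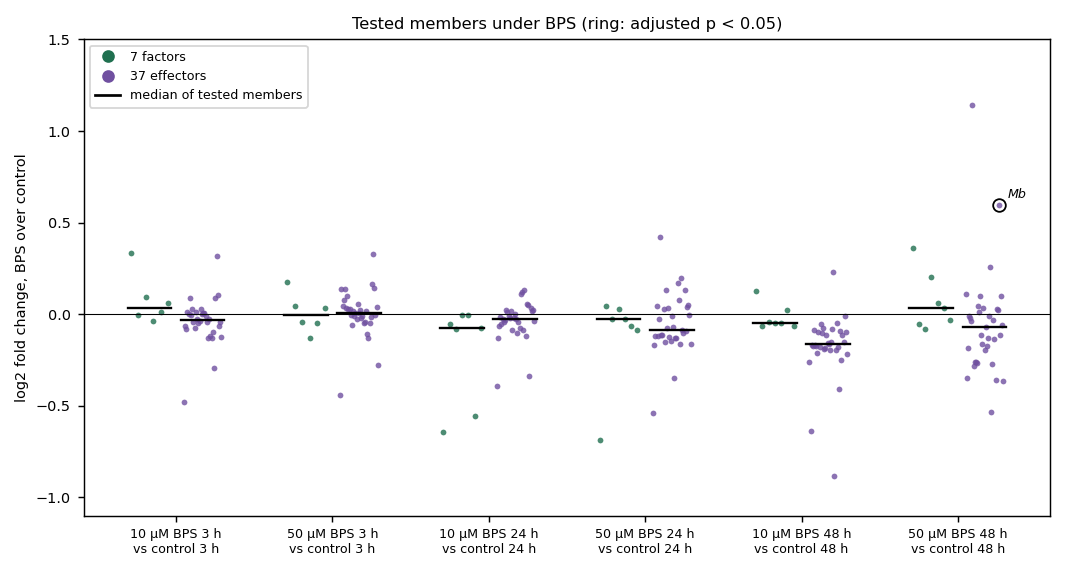
Log2 fold change of each tested gene, BPS over control at the same time (y axis), for the 6 comparisons (x axis); green points are factors, purple points effectors, black lines the median of each. A ring marks the 1 gene with adjusted p under 0.05, Mb at 50 µM and 48 h (0.60).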

How the data were processed

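Poly-A RNA of cultured forelimb buds was sequenced by the study as 45 libraries in 9 groups of 5. The deposited tables give raw read counts per gene and library, with no normalization, per the file headers. The same tables hold the authors' log2 fold change, p-value and adjusted p-value per gene, per the file headers. CASAVA 1.8, STAR 2.5, HTSeq 0.6.1, DESeq2 (version given as 2) and mm10 are named in the submitters' processing notes. No source used here gives the annotation release or the counting options.

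The 9 tables were joined on gene identifier. Of 1319925 control counts present in more than 1 table, 0 differed, and a gene missing from a table had at most 1 read there. Genes were tested with edgeR 4.0.16 (R 4.3.3; TMM scaling, filterByExpr, robust quasi-likelihood fit, two-sided) on the 10 libraries of each comparison, with Benjamini-Hochberg adjustment over all genes tested and a threshold of 0.05. Differences between steps were interaction contrasts over all 45 libraries. The edgeR fits were tested on counts simulated with the same spread for every gene. That test does not cover shifts shared by many genes of a library. Alternatives were RLE scaling, no filter, DESeq2 1.42.0, all 45 libraries, the replicate number as a block, and each library left out in turn. Deviations of same-numbered libraries correlated above 0.1 in every pair only for 50 µM BPS at 3 h (0.123 to 0.258) and 10 µM BPS at 24 h (0.104 to 0.274) against control, where the block called 0 of the 44 genes, as did the fit without it.

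CPM per kb used the deposited gene length, which counts all annotated exonic bases. Overlaps came from GENCODE M21 and promoters from RefSeq. The 44 genes and the further lists were chosen with earlier results of these data known. Values are given in full for the 7 factors and, in each other role, the 3 genes with the smallest adjusted p in each control step, and for each BPS comparison the genes that passed or the 3 with the smallest p. Further genes are given as counts with up to 4 examples by smallest adjusted p. In the authors' deposited table for control limbs, 32 of the 44 genes were higher and 1 lower at 24 h than at 3 h, and 26 were higher and 0 lower at 48 h than at 24 h, at an adjusted p under 0.05. Floors and errors cover counting and spread between these libraries only.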

Additional observations from a re-analysis of the deposited data

Results flagged for a closer look

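In 13 of 360 groups of 5 libraries examined, over 38 of the genes and the sums of the effectors and of the factors, 1 library lay apart from the other 4 by more than Dixon's 95% limit, which chance passes in about 5% of groups. The differentiation and fusion factors gave 1 such case, Mymk at 48.0 CPM in control 48 h replicate 3, with the others at 66.2 to 71.0 CPM. Casq2 was low in the same library, at 88.8 CPM, against 118 to 127 CPM in the others.

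Among thick-filament genes, Myh7 had 21.7 CPM in control 3 h replicate 1 (others 15.5 to 16.3 CPM) and Myl1 had 91.0 CPM there (others 82.7 to 84.0 CPM). Myh8 had 57.3 CPM in 50 µM 3 h replicate 2 (others 69.9 to 71.5 CPM) and 239 CPM in 10 µM 24 h replicate 3 (others 156 to 179.9 CPM). Myl4 had 200.02 CPM in 50 µM 48 h replicate 4 (others 209.5 to 212 CPM).

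The thin-filament genes of 50 µM 24 h replicate 1 stood high together. Tnni1 had 152 CPM (others 131 to 133 CPM), Tnnc1 177 CPM (others 139 to 145 CPM) and Tpm2 481.052 CPM (others 416 to 426 CPM). In 50 µM 3 h replicate 2 Tnni2 was low, at 6.35 CPM (others 8.18 to 8.65 CPM), and so was the effector sum, at 2069 CPM (others 2380 to 2484 CPM). Casq2 had 25.4 CPM in control 3 h replicate 3 (others 28.7 to 29.5 CPM).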

How the results depend on the processing

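Control culture results kept their direction and their side of the threshold in 809 of 855 values of single genes recomputed, BPS results in 338 of 348. Most of the BPS values were of genes that were not called and stayed so. Of the changes there, 9 were losses of the call of Mb, the only gene called, and 1 was a new call of Tnni2. New calls of genes outside the values followed, such as Neb at 50 µM and 24 h, were not counted. With the replicate block, 1 gene (Tnni2, −0.33, adjusted p = 0.0314) was called at 50 µM BPS and 24 h, where the fit without it called 0, and 0 were called at 48 h, where it called Mb. The fit over all 45 libraries also called 0 there. Deviations of same-numbered libraries correlated at 0.0927 to 0.255 between 50 µM BPS and control at 24 h, where 4 BPS libraries matched their own number best. At 48 h the correlations were −0.0801 to 0.108, with 2 such libraries. No label says that equal numbers pair libraries. Control 48 against 24 h gave 24 called genes, 27 with DESeq2, 20 without the filter, 32 with the block and 31 with all 45 libraries. Pax7 in that step was called without the filter (adjusted p = 0.0448), with DESeq2 (0.0448), the block (0.0368) and all 45 libraries (0.0106), and Mymk (0.103) and Casq2 (0.0730) were not called without the filter. Actn2 was called there with DESeq2 (0.0364), the block (0.000213) and all 45 libraries (0.0124), and Myod1 at 24 against 3 h was not called with all 45 libraries (0.0816). With 1 library left out at a time, the called genes numbered 32 to 35 for control 24 against 3 h, 19 to 28 for 48 against 24 h and 37 to 38 for 48 against 3 h. They numbered 0 to 2 for 50 µM BPS at 24 h (2 without control replicate 5), 0 to 3 at 48 h, and 0 in the other BPS comparisons and in the interactions. The steps gave 34 to 35 and 32 to 34 under 50 µM BPS, and 32 to 33 and 21 to 29 under 10 µM BPS. At 50 µM and 48 h, 3 were called without control replicate 3, 2 without control replicate 1, 1 without control replicate 4 or 50 µM replicate 1, and 0 without any other library. Changes of sign were seen only near 0: Pax7 at 24 against 3 h ranged over these fits between −0.0098 (without control 24 h replicate 5) and 0.187. At 48 against 24 h Myf5 ranged between −0.0380 (without control 48 h replicate 5; −0.0329 without control 24 h replicate 3) and 0.205, and Myod1 between −0.105 and 0.0026 (without control 48 h replicate 3). The causes were not tested. At 3 reads the floor was 0.130 to 0.197 CPM, and Myl2 and Tnnc2 did not pass the filter on low counts in the comparisons reported.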
